A study of Mus musculus with 12 samples.

Results

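The neuron-enriched microRNAs (miRNAs) considered here were the 9 array probes named for mouse miRNAs of the miR-7, miR-9, miR-124, miR-128, miR-129, miR-137 and miR-138 families, without the probes for star strands, out of 417 probes named for mouse miRNAs. They were picked out by probe name: miR-7a, miR-7b, miR-9, miR-124, miR-128a and miR-128b (1 probe named for both, called miR-128 from here on), miR-129-3p, miR-129-5p, miR-137 and miR-138. They were measured in BC3H1, a mouse cell line derived from a brain tumour that has muscle-like properties, on Exiqon miRCURY LNA arrays (version 10), whose capture probes contain locked nucleic acids. The line came in 3 groups of 4 arrays. RS_DMSO were rapamycin-sensitive cells given the solvent DMSO for 24 h, RS_Rap were sensitive cells given 100 nM rapamycin for 24 h, and RR_Rap were cells of the resistant line RR1, which was raised from BC3H1 over 6 months of culture with 1 µM rapamycin and stayed under the drug throughout. All groups are BC3H1 cells, with no untreated RR1 cells among them, so resistance and the presence of the drug cannot be told apart in RR_Rap. RR_Rap also differs from RS_Rap in dose and in time of exposure, and RR1 is 1 line. Whether the 4 samples of a group were separate cultures is unstated, and the p-values may therefore reflect technical spread alone.

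MicroRNAs are short RNAs cut from a hairpin precursor, and they repress messenger RNAs that pair with their seed, the stretch from base 2 to base 8. miR-124 and miR-9 are best known from neurons, where they repress genes of non-neuronal cells and of progenitors, and miR-128, miR-137 and miR-138 are linked to neuron excitability, maturation and dendritic spines. miR-7 is bound in the brain by the circular RNA Cdr1as. In rat neurons miR-129 represses the potassium channel messenger Kcna1 in a manner that depends on the mTOR kinase complex, the target of rapamycin.

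Mature sequences were available for 8 of the 9 probes in RefSeq (assembly GRCm38.p6), matched by name and arm. The following are the miRNAs on which the results turn, and miR-7b as the near-identical partner of miR-7a, written 5′ to 3′ with the seed in capitals.
miR-129-5p: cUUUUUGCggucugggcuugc
miR-129-3p: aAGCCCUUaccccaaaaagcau
miR-7a: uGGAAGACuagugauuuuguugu
miR-7b: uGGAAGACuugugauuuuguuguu
miR-128: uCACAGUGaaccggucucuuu

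The same miR-129-5p is encoded by Mir129-2 (chr2:94241419-94241439, minus strand, within the host transcript Mir670hg) and Mir129-1 (chr6:29022624-29022644, plus strand, overlapping no other gene of that annotation). The 3p sequence shown is that of Mir129-2 (chr2:94241376-94241397, minus strand). The sources used here do not give the miR-129 locus for which the 3p probe was designed. The Mir129-2 hairpin is shown because the annotation places both printed miR-129 sequences in it, with the 5p arm and then the 3p arm in capitals (chr2:94241364-94241453, minus strand, 90 bases).
Mir129-2 hairpin: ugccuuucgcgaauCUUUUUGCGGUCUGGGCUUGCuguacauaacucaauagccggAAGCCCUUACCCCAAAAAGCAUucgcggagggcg

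miR-7a comes from Mir7-2 (chr7:78888295-78888317, plus strand, overlapping no other annotated gene) and Mir7-1 (chr13:58392841-58392863, minus strand, within Hnrnpk). miR-7b comes from Mir7b (chr17:56243017-56243040, plus strand). Over the 23 bases they share, miR-7a and miR-7b differ by 1 substitution, A10U, counted from 1 at the 5′ end of miR-7a, and miR-7b is 1 base longer. They have the same seed, and cross-hybridisation between their probes was not tested. miR-128 comes from Mir128-1 (chr1:128202404-128202424, plus strand, within R3hdm1) and Mir128-2 (chr9:112118644-112118664, minus strand, within Arpp21), whose mature sequences are identical. Apart from the miR-7 pair, no seed was shared between the 8 matched members or with another of the 1679 mature mouse miRNA names in the RefSeq table.

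Each sample was labelled with the dye Hy3 and hybridised together with a common RNA pool labelled with Hy5. No dye swap was made. The labels describe the pool in ways that do not match (equal parts of the 3 conditions, or all of 9 samples), so its makeup is unsettled. Signal was judged against 7 negative-control probes, each printed 4 times per array like the miRNA probes. Their mean Hy3 signal was 107 to 167 scanner units per array, and the highest of them ran from 125 to 321. RS_DMSO 3 stood apart: its log2 ratios correlated with those of the other RS_DMSO arrays at r = 0.574 to 0.709 over the mouse probes, and its highest negative control was the 321. On RS_DMSO 1 and RS_DMSO 2 the highest negative controls were 187 and 208, against at most 140 on each of the other 9 arrays. The arrays were scanned group by group on 1 day, 1 array per slide, so scan order and group cannot be told apart.

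A probe counted as above the negative controls in a group when its Hy3 signal exceeded the highest negative control on at least 3 of the 4 arrays. Of the 9 members, 5 did so in at least 1 group, against 50.8% of all mouse probes. miR-129-5p and miR-7a did so in all 3 groups, miR-129-3p and miR-128 in RS_Rap and RR_Rap, and miR-9 in RR_Rap alone. For miR-128 and miR-9 the margin was small. In RR_Rap, miR-9 stood at 0.25 ± 0.03 (SD, n = 4) on the scale of log2 Hy3 signal over the mean negative control, where the highest negative controls were themselves at 0.19 to 0.23. With a stricter limit, the mean plus 3 SD of the negative controls, only miR-129-5p, miR-129-3p and miR-7a remained. Fewer mouse probes passed in RS_DMSO (28.3%) than in RS_Rap (48.2%) or RR_Rap (45.3%), and the higher negative controls of RS_DMSO 1 to 3 set that limit.

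miR-124, miR-137, miR-138 and miR-7b were not above the negative controls in any group. For miR-124, an abundant miRNA of adult neurons, the Hy3 signal was 121 to 131 units in RS_DMSO, 106 to 114 in RS_Rap and 115 to 119 in RR_Rap, and no array passed the limit. Over the mean negative control, its log2 value was 0.01 ± 0.03 (SD, n = 4) in RS_Rap and 0.02 ± 0.04 in RR_Rap, the level of the negative-control probes themselves. miR-138, which limits dendritic spine size in rat neurons, gave −0.02 ± 0.01 in RS_Rap and 0.00 ± 0.08 in RR_Rap, again with no array above the limit. miR-7b gave −0.05 ± 0.05 and −0.04 ± 0.04 in these groups. miR-137 passed on 2 of the 12 arrays. In the pool channel, miR-138 passed the limit of that channel on 8 arrays, miR-124 on 6 and miR-7b on 0. These values do not show that the miRNAs are absent, only that their sample-channel signals were not above the negative controls in any group.

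**Figure D1:**
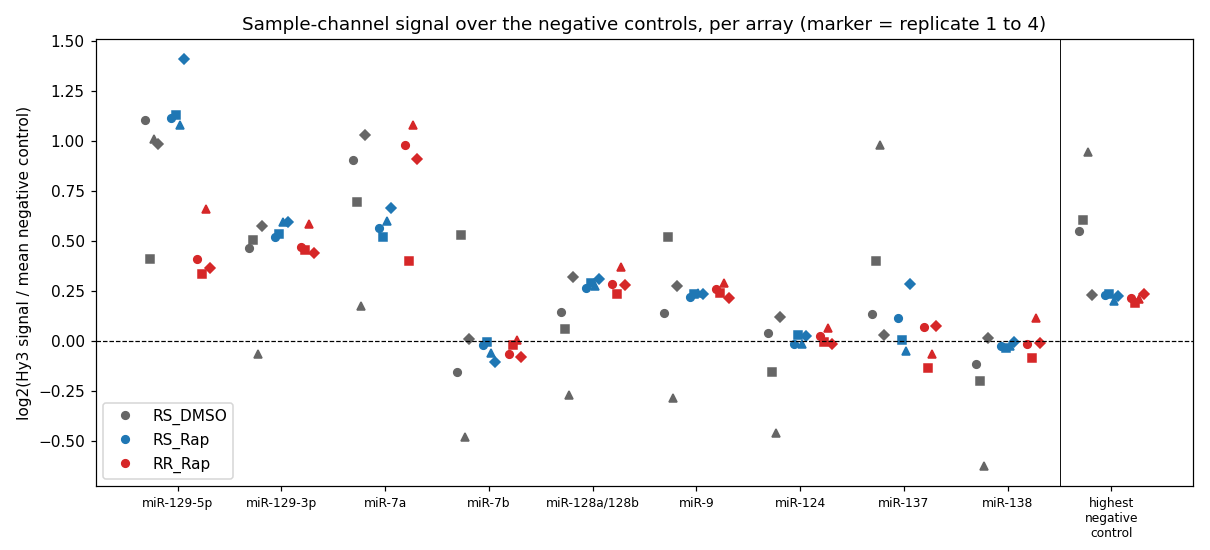
Log2 of the Hy3 (sample) signal over the mean of the 7 negative-control probes of the same array, for each member and, on the right, for the highest negative control; each point is 1 array, coloured by group, with the marker giving the replicate. miR-129-5p and miR-7a lie above the highest negative control on 11 of 12 arrays each, while miR-124, miR-138 and miR-7b scatter around 0, and the RS_DMSO arrays spread most.

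Spots of a probe differed widely on some RS_DMSO arrays. On RS_DMSO 2, miR-7b read 432 units on 1 spot and at most 116 on the other 3, miR-137 read 365 against at most 132, and miR-9 read 355 against at most 145. On RS_DMSO 3, the miR-137 spots read 259 to 410 units, while miR-124 on that array read 118 to 126. The miR-129-5p spots read 239 to 480 units on RS_DMSO 3 and 221 to 342.5 on RS_DMSO 1, and miR-129-3p read 258 on 1 spot of RS_DMSO 2 against at most 183 on the others. None of the members' spots was saturated, and 1 was flagged and left out, a miR-9 spot on RR_Rap 3.

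Changes between groups were tested on the log2 ratio of sample over pool, after background correction and normalisation within each array, with limma over all 417 probes and Benjamini-Hochberg adjustment; a probe was called at an adjusted p under 0.05. The comparison of RS_Rap with RS_DMSO asks what 24 h of rapamycin does in sensitive cells, that of RR_Rap with RS_DMSO how the resistant line under rapamycin differs from unexposed cells, and that of RR_Rap with RS_Rap how the lines differ when both are in the drug. Each pair of these comparisons shares a group, so their values are given side by side and not as independent evidence. After 24 h of rapamycin 1 member was called, miR-129-5p (higher), where 3.36% of all probes were called and 1.68% were called higher. In RR_Rap against RS_DMSO 3 members were called, all lower (miR-129-5p, miR-137 and miR-124), where 23.3% of all probes were called and 10.3% were called lower. In RR_Rap against RS_Rap 4 were called, miR-7a and miR-128 higher and miR-129-5p and miR-124 lower, where 28.8% of all probes were called, 15.1% higher and 13.7% lower. With 9 members, these counts are few to set beside those shares. The median log2 change of the members was −0.14, −0.02 and 0.09 in the 3 comparisons, and that of all probes was −0.02, −0.01 and 0.03.

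miR-129-5p, which represses the cell-cycle kinase CDK6 in human cells, had the smallest adjusted p of the members in all 3 comparisons. Its log2 ratios were 0.17, 0.07, −0.04 and 0.18 on RS_DMSO arrays 1 to 4, 0.44, 0.36, 0.27 and 0.39 in RS_Rap, and −0.27, −0.46, −0.28 and −0.25 in RR_Rap. The 3 groups did not overlap: every RS_Rap array lay above every RS_DMSO array, and every RR_Rap array lay below both. Non-overlap of the groups was seen for 14.9%, 25.4% and 39.8% of all probes in the 3 comparisons, and for 3, 3 and 5 of the 9 members.

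Against RS_DMSO, miR-129-5p was higher after 24 h of rapamycin by 0.27 ± 0.06 on the log2 scale (SE; 1.21-fold; limma, adjusted p = 0.0361). In the resistant line it was lower than in RS_DMSO by 1.33-fold (log2 change −0.41 ± 0.06; adjusted p = 0.000372) and lower than in RS_Rap by 1.60-fold (−0.68 ± 0.06; adjusted p = 5.08e-06). The background offset draws the log2 changes of dim probes towards 0. Both differences of RR_Rap stayed called with each array left out in turn and under all 14 other settings (other processing, a replicate block, or RS_DMSO 2 and 3 both omitted), with log2 changes from −0.69 to −0.35 against RS_DMSO and from −1.32 to −0.48 against RS_Rap. The rise after 24 h was less steady. Its call was lost in 6 of 12 leave-one-out fits, where the adjusted p ran up to 0.107. These were without RS_DMSO 2, without RS_Rap 1, 2 or 4, and without RR_Rap 1 or 4. In the sample channel alone the rise was 0.06 (limma, adjusted p = 0.739). The mean raw sample signal was 255 units in RS_DMSO and 249 in RS_Rap. The pool signal of this probe was 151 to 204 units in RS_DMSO, 120 to 176 in RS_Rap and 164 to 225 in RR_Rap. Its part in the changes of the ratio was not tested.

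The unnormalised sample channel showed the same order between the rapamycin groups. miR-129-5p read 229, 236, 234 and 297 units in RS_Rap and 154, 145, 179 and 153 in RR_Rap, with 279, 179, 338 and 224 in RS_DMSO. The RS_Rap and RR_Rap arrays did not overlap, while RS_DMSO spanned both. Taken over the mean negative control these 2 groups were also apart, as for 24.7% of all probes, and the log2 difference of RR_Rap from RS_Rap was −0.74 (exact two-sided permutation test, p = 0.0286, the smallest p that 4 against 4 arrays allow, and adjusted p = 0.268 over 15 such tests). None of the 15 tests, over 5 members and 3 comparisons, passed after adjustment. A test at the smallest possible p, taken alone, cannot pass over 15 tests, so this outcome does not decide whether members differed. The 5 members were also chosen by their signal in this channel.

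**Figure D2:**
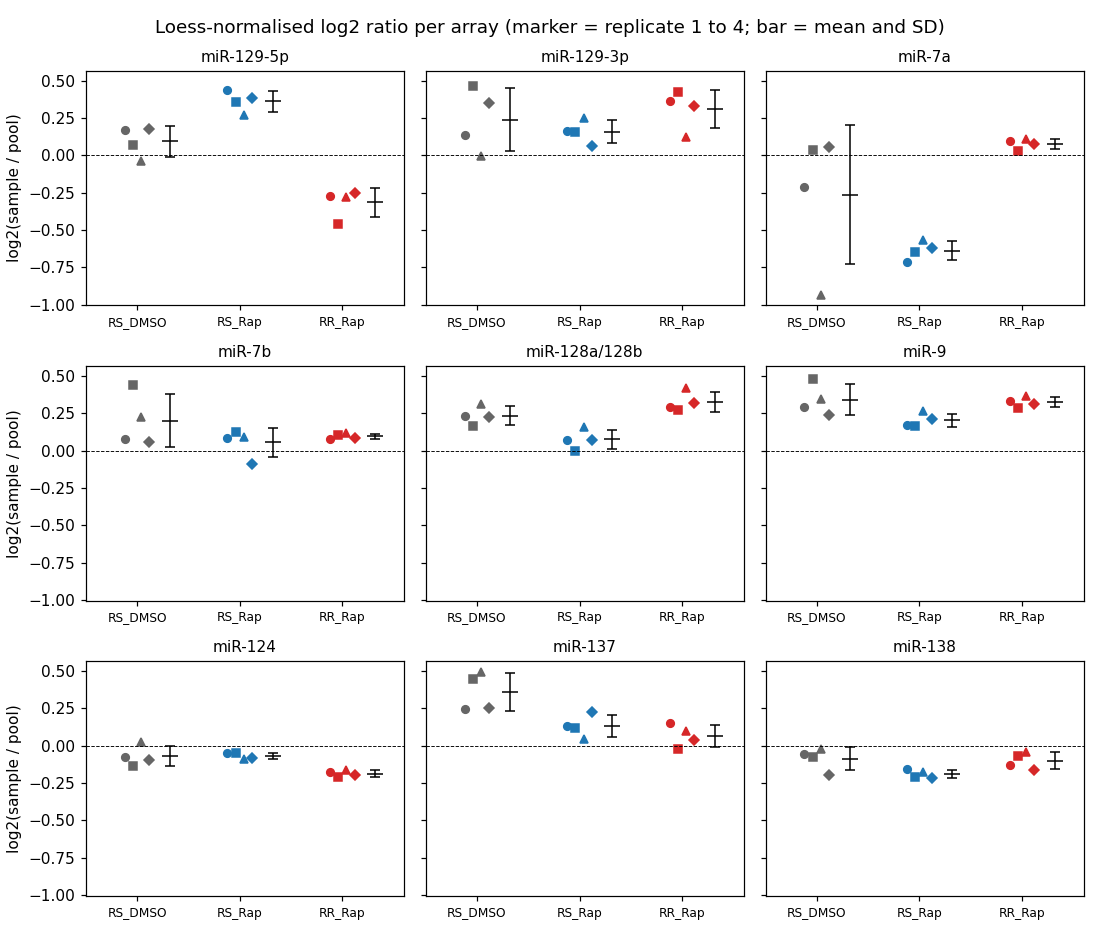
Normalised log2 ratio of sample over pool on each array, 1 panel per member, with groups along the horizontal axis; markers give the replicate and bars the mean and SD of 4 arrays. The miR-129-5p groups are apart from each other, and miR-7a is lower on all RS_Rap arrays than on 3 of the 4 RS_DMSO arrays and on all RR_Rap arrays, with RS_DMSO 3 at −0.93.

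miR-129-3p, from the other arm of a miR-129 hairpin, was not called in any comparison. Its log2 ratios were 0.13, 0.47, 0.00 and 0.35 in RS_DMSO, 0.17, 0.16, 0.25 and 0.06 in RS_Rap, and 0.36, 0.42, 0.13 and 0.33 in RR_Rap, and the groups overlapped. The changes were −0.08 ± 0.10 after 24 h (adjusted p = 0.623), 0.07 ± 0.10 in RR_Rap against RS_DMSO (adjusted p = 0.674) and 0.15 ± 0.10 in RR_Rap against RS_Rap (limma, adjusted p = 0.286), with 95% intervals reaching from −0.29 to 0.13, −0.14 to 0.28 and −0.06 to 0.36. The sign of the 2 RR_Rap changes depended on the normalisation. Against RS_DMSO they were −0.17 without loess but centred, −0.08 without centring, −0.17 with spike-in centring and −0.13 in the value table, and against RS_Rap they were −0.10, −0.15, −0.16 and −0.18, none called. With array weights the change against RS_Rap was 0.18 and called (adjusted p = 0.0281). The difference between the 5p and 3p probes was tested directly, a test chosen after the values were seen. The log2 ratio of the 5p probe minus that of the 3p probe was −0.14 ± 0.19 (SD, n = 4) in RS_DMSO, 0.20 ± 0.13 in RS_Rap and −0.63 ± 0.20 in RR_Rap. By exact two-sided permutation test it was lower in RR_Rap than in RS_DMSO by 0.48 and than in RS_Rap by 0.83 (p = 0.0286 for both, adjusted p = 0.0429 over 3 comparisons), and differed between RS_Rap and RS_DMSO by 0.35 (p = 0.0571). Without loess these differences were −0.51 and −0.85 and did not pass (adjusted p = 0.0857 for both). The loci that contribute to either probe cannot be told apart here.

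miR-7a, which represses the growth-factor receptor EGFR in human cells, differed most in RR_Rap against RS_Rap. Its log2 ratios were −0.71, −0.65, −0.57 and −0.62 in RS_Rap and 0.09, 0.03, 0.11 and 0.08 in RR_Rap. In RS_DMSO they were −0.21, 0.04 and 0.06 on arrays 1, 2 and 4 but −0.93 on RS_DMSO 3. The rapamycin groups were far apart, with little spread inside either, and RS_DMSO 3 alone stretched its group below all RS_Rap arrays.

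miR-7a was higher in RR_Rap than in RS_Rap by 1.64-fold (log2 change 0.72 ± 0.17; limma, adjusted p = 0.0072). This call held in all 12 leave-one-out fits and 13 of 14 other settings. Its size depended on the processing, from 0.23 in the value table to 1.05 with processed signals. It was 0.34 without loess but centred, 0.29 without loess and centring, and 0.28 with spike-in centring. In the sample channel alone the change was 0.43 (adjusted p = 0.0952). After 24 h of rapamycin miR-7a was not called (−0.38 ± 0.17; adjusted p = 0.211), but without RS_DMSO 3 the change was −0.60 with an adjusted p of 0.000223. Before loess, centred on each array's median, RS_DMSO 3 (−0.47) lay with RS_DMSO 1, 2 and 4 (−0.45, −0.43 and −0.32), all above the RS_Rap arrays (−0.79 to −0.72), and the change was then called at −0.34 (adjusted p = 0.000251). The change was negative in all of these refits, 12 with 1 array left out and 14 under other settings. RR_Rap against RS_DMSO gave 0.34 ± 0.17 (adjusted p = 0.202), was not called under any setting, and was 0.12 without RS_DMSO 3.

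In the sample channel itself miR-7a read 243, 219, 190 and 231 units in RS_DMSO, 158, 155, 168 and 177 in RS_Rap, and 229, 151, 241 and 225 in RR_Rap. All RS_Rap arrays were below all RS_DMSO arrays, and RR_Rap 2, at 151, was the only RR_Rap array as low as RS_Rap. On RR_Rap 2 the pool channel was also low for this probe (127 units, against 213 to 244 on the other RR_Rap arrays). Relative to the mean negative control the groups overlapped. The difference was −0.11 after 24 h and 0.26 in RR_Rap against RS_Rap (exact permutation test, p = 0.6 and 0.143). Relative to the highest negative control the difference after 24 h was 0.25, of the opposite sign. miR-7b, at negative-control level, was not called in any comparison, with log2 changes of −0.15 ± 0.08, −0.11 ± 0.08 and 0.04 ± 0.08 (limma, adjusted p = 0.271, 0.399 and 0.752). Each of these was called in 1 of 13 other settings. With processed signals the first 2 were −0.70 and −0.44 (limma adjusted p = 0.0257 and 0.0492). Without loess but centred the last was 0.23 (limma adjusted p = 0.0122). A difference in response between miR-7a and miR-7b was not tested, since the miR-7b probe gave no signal above background.

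**Figure D3:**
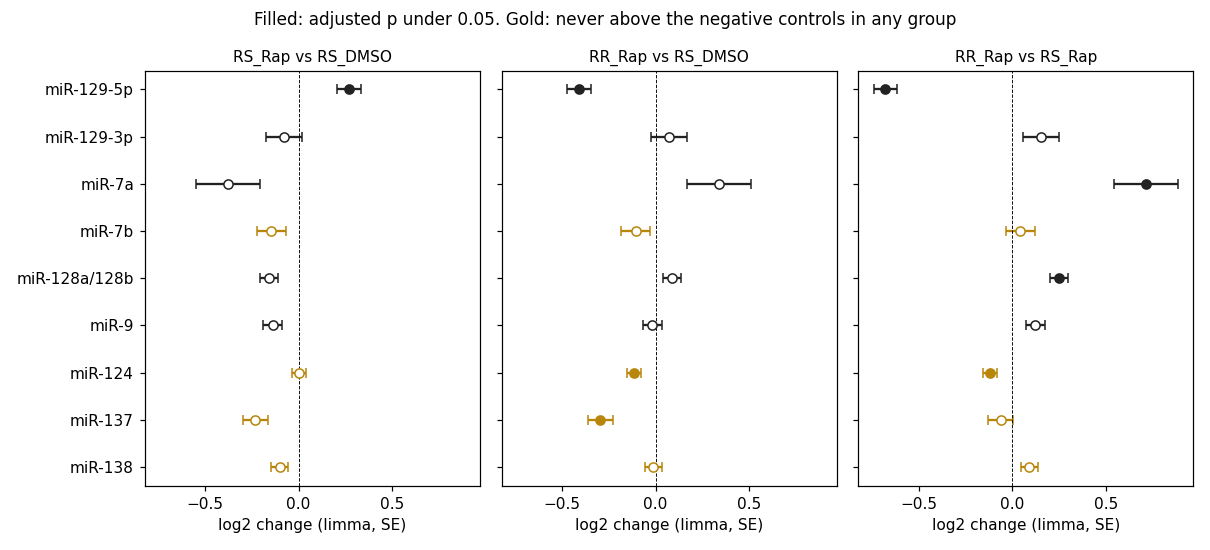
Log2 change with its standard error (limma, all 12 arrays) of each member in the 3 comparisons; filled points have an adjusted p under 0.05 and gold points belong to probes that were not above the negative controls in any group. The largest changes are those of miR-129-5p (−0.68) and miR-7a (0.72) in RR_Rap against RS_Rap, in opposite directions.

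miR-128, which represses the progenitor gene Bmi1 in glioma cells, was higher in RR_Rap than in RS_Rap by 1.19-fold (0.25 ± 0.05; limma, adjusted p = 0.00203). Its log2 ratios were 0.07, 0.00, 0.16 and 0.07 in RS_Rap, 0.29, 0.27, 0.42 and 0.32 in RR_Rap, and 0.23, 0.16, 0.32 and 0.23 in RS_DMSO. The RS_Rap arrays lay below those of both other groups. Against RS_DMSO the changes were −0.16 ± 0.05 after 24 h (adjusted p = 0.0767) and 0.09 ± 0.05 in RR_Rap (adjusted p = 0.223); with the sample channel alone the latter was 0.20 and called (adjusted p = 0.0276). The raw signals differed little, 128.5 to 139.0 units in RS_Rap and 135.1 to 148.8 in RR_Rap, and with the sample channel alone the change between them was 0.11 (adjusted p = 0.285). The call was also lost without loess and centring and with centring on the spike-in controls (0.20 and 0.18; adjusted p = 0.0779 and 0.0762), and it held in all 12 leave-one-out fits.

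miR-9 was not called, with log2 changes of −0.14 ± 0.05, −0.02 ± 0.05 and 0.12 ± 0.05 in the 3 comparisons (limma, adjusted p = 0.131, 0.875 and 0.0965). Its log2 ratios in RR_Rap, 0.28 to 0.36, lay above those in RS_Rap, 0.16 to 0.26. The last change was called in 4 of 14 other settings: without loess but centred (0.19; adjusted p = 0.00935), with array weights (0.13; adjusted p = 0.0172), and, in settings added after seeing the data, with the median of a probe's spots in place of their mean (0.12; adjusted p = 0.0179) and with RS_DMSO 2 and 3 both omitted (0.12; adjusted p = 0.0211). It was also called in 1 of 12 leave-one-out fits, without RS_DMSO 2 (adjusted p = 0.036), and it was −0.35, of the opposite sign and not called, in the value table (adjusted p = 0.48). The pool channel of miR-9 was not above its negative controls on any array, so its ratio has a denominator at background.

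The calls of miR-137 and miR-124 rest on probes that were not above the negative controls in any group. In RS_DMSO, miR-137 passed the limit on 1 array, RS_DMSO 3. miR-137, lower in RR_Rap than in RS_DMSO by 0.29 ± 0.07 on the log2 scale (limma, adjusted p = 0.00562), read 104 to 127 units in RR_Rap and 144, 181, 332 and 115 in RS_DMSO. The call held in all 12 leave-one-out fits and in 7 of 13 other settings, among them RS_DMSO 2 and 3 both omitted (−0.18; adjusted p = 0.0477). It was lost in the other 6, with adjusted p from 0.0579 without background subtraction to 0.409 with spot medians, where the change was −0.11. Its other changes were −0.23 ± 0.07 after 24 h (adjusted p = 0.0622) and −0.06 ± 0.07 in RR_Rap against RS_Rap (adjusted p = 0.554). miR-124 was lower in RR_Rap by 0.12 ± 0.04 against both RS_DMSO (adjusted p = 0.0471) and RS_Rap (adjusted p = 0.0345), with 0.00 ± 0.04 after 24 h. These calls held in 1 and 4 of the 12 leave-one-out fits, with adjusted p up to 0.106 and 0.0879. In the sample channel alone both miR-124 changes turned to positive values, 0.01 and 0.05, neither called, and its pool-channel signal was higher in RR_Rap (81.0 to 90.0 units) than in RS_Rap (69.5 to 73.9) but overlapped that in RS_DMSO (80.8 to 87.6). miR-138 was not called, at −0.10 ± 0.04, −0.01 ± 0.04 and 0.09 ± 0.04 (limma, adjusted p = 0.202, 0.884 and 0.166). Its last change was called in 2 of 13 other settings. It was 0.19 without loess but centred and 0.24 with an offset of 10 (limma adjusted p = 0.00425 and 0.0463).

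**Figure D4:**
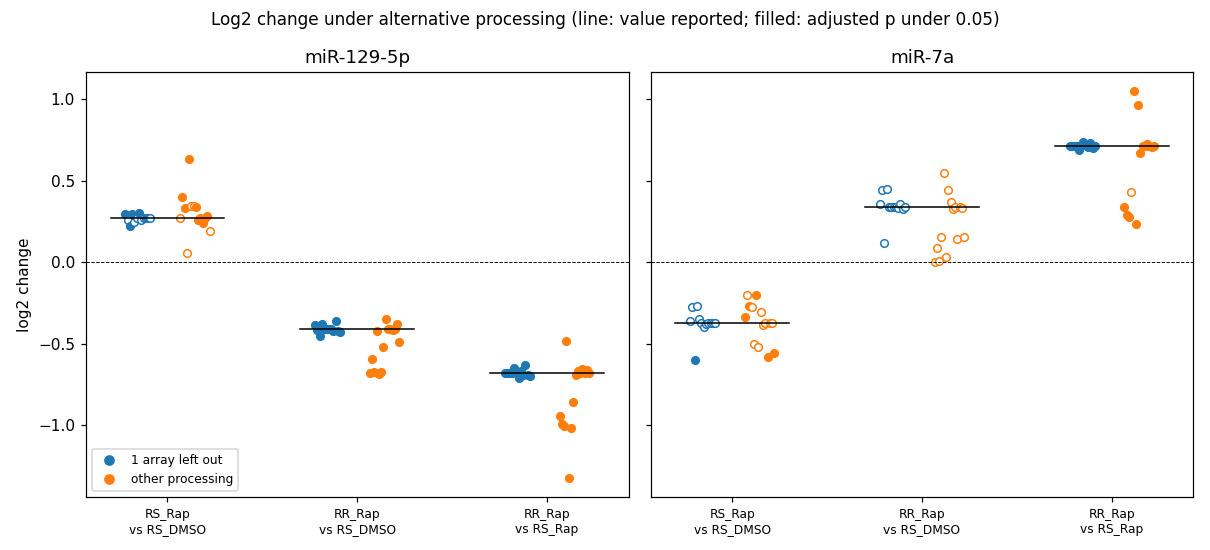
Log2 change of miR-129-5p and miR-7a in the 3 comparisons with 1 array left out (blue) and under other processing (orange); filled points have an adjusted p under 0.05 and black lines mark the values reported. The miR-129-5p differences of RR_Rap are filled throughout, its change after 24 h is open in 11 of 26 fits, and the miR-7a change after 24 h is filled in 6 of 26.

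Over the 12 arrays, the log2 ratio of miR-129-5p was most like those of miR-675-5p (r = 0.967), miR-125b-5p (r = 0.956) and miR-667 (r = 0.943) among the 211 other probes above the negative controls. miR-7a was most like miR-487b (r = 0.863), miR-715 (r = 0.854) and miR-340-5p (r = 0.823), and miR-128 most like miR-302d (r = 0.954), miR-15b* (r = 0.938) and let-7d (r = 0.923). These are descriptions over 3 groups of 4 arrays that share 1 pool.

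Star strands of the family, the passenger arms of the hairpins, were on the array for miR-7a* and miR-9*, and neither was above the negative controls or called. Of 13 probes for other miRNAs enriched in the nervous system, 6 were above the negative controls, against 50.8% of all mouse probes. None was called after 24 h, where 3.36% of all probes were called. In each comparison of RR_Rap 1 was called, where 23.3% (against RS_DMSO) and 28.8% (against RS_Rap) of all probes were called. miR-134, a neuronal miRNA of dendrites, was lower in RR_Rap than in RS_DMSO (−0.25 ± 0.06; limma, adjusted p = 0.00815) but was not above the negative controls. miR-338-5p, of the oligodendrocyte-linked miR-338 hairpin, was higher in RR_Rap than in RS_Rap (0.19 ± 0.04; adjusted p = 0.00436).

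Among 7 probes for muscle miRNAs, 2 were above the negative controls, against 50.8% of all mouse probes. They were miR-1 and miR-206, on 11 arrays each. The labels give the line muscle-like properties. In RR_Rap against RS_Rap, miR-1 was lower by 1.60-fold (−0.68 ± 0.20; limma, adjusted p = 0.023), miR-206 was lower by 1.53-fold (−0.61 ± 0.19; adjusted p = 0.0339), and miR-208, not above the negative controls, was higher (0.41 ± 0.08; adjusted p = 0.00156). Of all probes, 15.1% were called higher and 13.7% lower in RR_Rap against RS_Rap. Cross-hybridisation between the miR-1 and miR-206 probes was not tested. No muscle probe was called in the other comparisons. The summed Hy3 signal of the 7 muscle probes was 1169 to 1269 units in RS_DMSO, 1126 to 1226 in RS_Rap and 866 to 998 in RR_Rap. Such sums, here and below, lack background subtraction and include probes not above the negative controls. The mean negative control alone was 107 to 167 units per array, so the sums hold much background. The summed muscle signal was lowest in RR_Rap, as was miR-129-5p; its part in that result was not tested, and fewer cells of a type and less RNA per cell cannot be told apart in these bulk samples. None of 6 epithelial probes was above the negative controls or called, with summed signals of 676 to 1211, 643 to 659 and 655 to 692 units. Of 6 blood-cell probes 2 were above, with summed signals of 725 to 951, 669 to 714 and 722 to 787 units. The 1 called was miR-142-3p, higher in RR_Rap than in RS_Rap (0.20 ± 0.04, limma adjusted p = 0.00281). Beside these counts stand the same shares of all mouse probes, 50.8% above the negative controls and 15.1% called higher in that comparison.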

How the data were processed

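Total RNA of 12 samples was hybridised to 2-colour arrays with Hy3 for the sample and Hy5 for the pool, per the labels. The authors deposited unnormalized spot intensity values, which the file headers credit to Agilent Feature Extraction 9.5.3.1; the same files hold processed intensity values, used as an alternative. The authors also deposited a table of log2 values. Its columns correlated with the raw log2 Hy3/Hy5 values at r = 0.977 to 1.000, which gives its direction as sample over pool; its array medians were 0.393 to 0.604, with no centring, and the way its spots were summarised is not given. Its scale otherwise is unstated.

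With limma 3.58.1 in R 4.3.3, mean signals were corrected for background (normexp, offset 50), normalized by loess within each array with control spots at weight 0, and averaged over each probe's 4 spots less any flagged ones. One model with a mean per group was fitted with lmFit and eBayes to all 12 arrays, and p-values were adjusted over the 417 mouse probes. Signals in scanner units, and the counts above the highest negative control, rest on median pixel intensities without background subtraction. The log2 values over the mean negative control rest on mean pixel intensities, also without background subtraction. The software's well-above-background flag was set for at least 9463 of 9468 spots per array and removed no probe. Arrays limit the precision by their number. On simulated data of these arrays (RR_Rap against RS_DMSO, 417 probes), 46 of 50 probes changed by 0.5 and 50 of 50 changed by 1 on the log2 scale were recovered, with 4 false calls. The called member changes of that comparison were smaller, from 0.12 to 0.41 in size. Recovery of such changes, or in the other comparisons, is not given by these values.

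The members, lists and tests were chosen with earlier results of these data known. By rule all members are named in every comparison; of each list the called probes are named, up to 4; and for called members above the negative controls the 3 probes most alike are named. The alternatives were other normalizations, offsets, background corrections, signal columns and filters, array weights, a replicate block and leaving out each array. Same-numbered arrays of different groups had residual correlations of −0.11 to 0.15, within the −0.21 to 0.23 of differently numbered arrays. The labels do not say what a replicate number marks, so any pairing of the samples is unknown. The mature miR-124 sequence was not used here.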

Additional observations from a re-analysis of the deposited data

Results flagged for a closer look

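The miR-129-5p log2 ratio of RR_Rap 2 was −0.46, with the other 3 RR_Rap arrays at −0.28 to −0.25, a gap larger than Dixon's limit for 4 samples. It was the 1 such value among 27 groups of 4 tested, where chance gives about 1 in 20. Without this array the differences of RR_Rap from both other groups were still called.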

How the results depend on the processing

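Of the 417 probes, 14 were called after 24 h of rapamycin (7 higher and 7 lower), 97 in RR_Rap against RS_DMSO (54 and 43) and 120 in RR_Rap against RS_Rap (63 and 57). The count after 24 h was 123 without loess but centred on the median (92 and 31), 118 without centring (117 and 1), 115 with spike-in centring (108 and 7), 111 in the value table (105 and 6), 49 without background subtraction, 35 with processed signals, 33 with spot medians, 7 with RS_DMSO 2 and 3 both omitted (these last settings were added after seeing the data), and 1 in the sample channel alone. RR_Rap against RS_DMSO gave 52 in the sample channel alone. RR_Rap against RS_Rap gave 246 without loess but centred, 60 in the sample channel alone and 183 with array weights. Its split was 21 higher and 100 lower without centring, 22 and 115 with spike-in centring and 15 and 121 in the value table; RR_Rap against RS_DMSO split 74 and 28, 35 and 51, and 32 and 44 there. Without centring the median of all probes moved to 0.11 in both comparisons with RS_DMSO, and with processed signals to −0.13. Leaving out 1 array gave 4 to 34, 77 to 107 and 97 to 145 calls; after 24 h the count was 4, 26 and 34 without RS_DMSO 2, 3 and 4, 8 and 5 without RS_Rap 1 and 4, and 9 without RR_Rap 1. Of 27 member changes 8 were called, 4 without loess and centring, 3 in the sample channel alone, 5 among probes above the negative controls, and 5 to 8 with 1 array left out (5 without RS_Rap 1, 2 or 4 or RR_Rap 1 or 4). Members above the negative controls numbered 5 with any array left out, and 3 at the mean plus 3 SD limit. Reversed were the miR-124 changes, to 0.0312 without loess and centring and 0.0133 in the sample channel alone against RS_DMSO, and to 0.0550 in the sample channel alone against RS_Rap; the causes were not tested. With the replicate block 20, 89 and 113 probes were called. The miR-128 change after 24 h (−0.16) was then called, with a limma adjusted p of 0.026. Both miR-124 calls were lost (adjusted p = 0.0734 and 0.0573), with no other member call changed. Whether a replicate number marks a shared culture or day is unstated. Slide and scan day as blocks were not run, with 1 array per slide and 1 day. Low signal over background limits miR-124, miR-137, miR-138, miR-7b, miR-9 and miR-128.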
